A study of Mus musculus with 10 samples.

Results

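Adult mouse lenses labelled Klf4CN, carrying a conditional null allele of Klf4, were compared with wild-type (WT) lenses. The comparison used 4 of the 10 arrays of the series, chosen by their titles and age: 2 WT and 2 Klf4CN arrays of postnatal day 56 (PN56). Each of these arrays held RNA of whole lenses from an independent preparation pooled from 3 young adult mice. The other 6 arrays were 3 WT and 3 Klf4CN of embryonic day 16.5 (E16.5, 5 embryos pooled each). They shared in the model's estimate of the spread and in the choice of probe sets and tested genes. They were also read where the ages are compared for chromosome 4 and over all genes. The labels used here name no Cre driver or cell type of deletion, no strain and no sex. Signal was read for 18193 genes with a probe set of 1 gene symbol, the brightest probe set standing for its gene, and 13440 of them were bright enough to test. Signals below are linear and array-scaled, given for replicates 1 and 2 of each group (WT 1, WT 2, Klf4CN 1 and Klf4CN 2). Differences are log2(signal + 16), Klf4CN minus WT, with the standard error (SE), n = 2 arrays in each group, and p-values are limma's, adjusted over all 13440 genes.

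The lens is a capsule that encloses an epithelial layer and a mass of elongated fibre cells. Epithelial cells leave the cell cycle, turn into fibres, fill with crystallins, lay down specialised membrane and cytoskeleton, and then degrade their nuclei and organelles. KLF4 is a zinc finger transcription factor of the Kruppel-like family that binds CACCC-type boxes and is best known from surface epithelia, where it acts on proliferation and differentiation, and from the reprogramming of somatic cells.

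The 2 WT arrays correlated at r = 0.952 across the tested genes and the 2 arrays labelled Klf4CN at 0.957, with lower values, from 0.930 to 0.941, between genotypes. Crystallins, which define lens tissue, were bright on all 4 arrays, Cryba2 from 66758 to 108168. Klf4 was not lower in the lenses labelled Klf4CN. Its brightest probe set read 156.5 and 213.5 in WT and 731.8 and 702.2 in lenses labelled Klf4CN, a rise of 1.88 ± 0.338 (adjusted p = 0.0041). The second read 184.6 and 131.5 in WT and 366.6 and 311.3, a difference of 1.04 that did not pass. The position of these probe sets relative to the deletion is unknown here, and one outside it checks nothing, so every direction is that of the lenses labelled Klf4CN.

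Of 13440 genes, 1750 were called (13.0%), 812 higher (6.04%) and 938 lower (6.98%) in lenses labelled Klf4CN. Counts in the gene lists below are to be read against these shares. Rises had a median size of 0.85 and falls of 0.79 on the log2 scale. Of the rises, 321 reached 1, 78 reached 2 and 20 reached 3, while 299 falls reached 1, 33 reached 2 and 0 reached 3. The WT and Klf4CN signals did not overlap for any called gene, nor for 50.8% of all genes. Where both arrays of a called gene are said below to lie on one side, this adds no support to the call. Calls were most frequent among bright genes: of 10 equal classes by adult signal, the brightest had 29.0% called and a median SE of 0.121, and the class with the fewest calls 4.76% and 0.398. Among 1717 other probe sets of the called genes, 1298 (75.6%) had the sign of the called one, and among those of genes not called 57.3% did. Centring each array on its median left 803 rises and 280 falls, 74.2% of calls higher against 46.4% here, and moved the median of all genes from -0.056 to 0.083. Quantile normalization left 946 rises and 901 falls, 51.2% of calls higher. In each list below whose falls are given with centring alone, quantile normalization called more falls than centring did. Without Klf4CN 2 the count was 1061, without WT 1 it was 1079, and with the 4 adult arrays alone 806. Of 234 called genes named by rule, 116 kept their call with each of the 10 arrays left out, and 83 kept it in all 23 settings tried. A gene not tested in a setting was counted over the others. Where a call was lost with 1 adult array left out, the array is named with the log2 difference found without it. For genes described below, calls lost in other settings are named only where the difference also shrank markedly or turned. Array weights ended 113 of the 234 calls. Leaving out an embryonic array changes only the spread and ended 18 to 29 of the 234 calls.

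Genes of chromosome 4 were lower as a body in the adult lenses labelled Klf4CN. Of 820 tested genes on chromosome 4, which carries Klf4 itself, 194 fell and 11 rose, so that 23.7% were called lower against 5.89% of the 12588 tested genes on other chromosomes, where the share ran from 5.11% to 8%. Their median log2 difference was -0.40, with quartiles of -0.68 and -0.06, and the medians of the other chromosomes lay between -0.10 and 0.02. On the linear scale the median ratio of Klf4CN to WT signal was 0.749 on chromosome 4 and 0.971 elsewhere. Chromosome 4 held 6.10% of the tested genes and 20.7% of all falls. It was examined after the values had been seen, so these figures are a description.

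**Figure D1:**
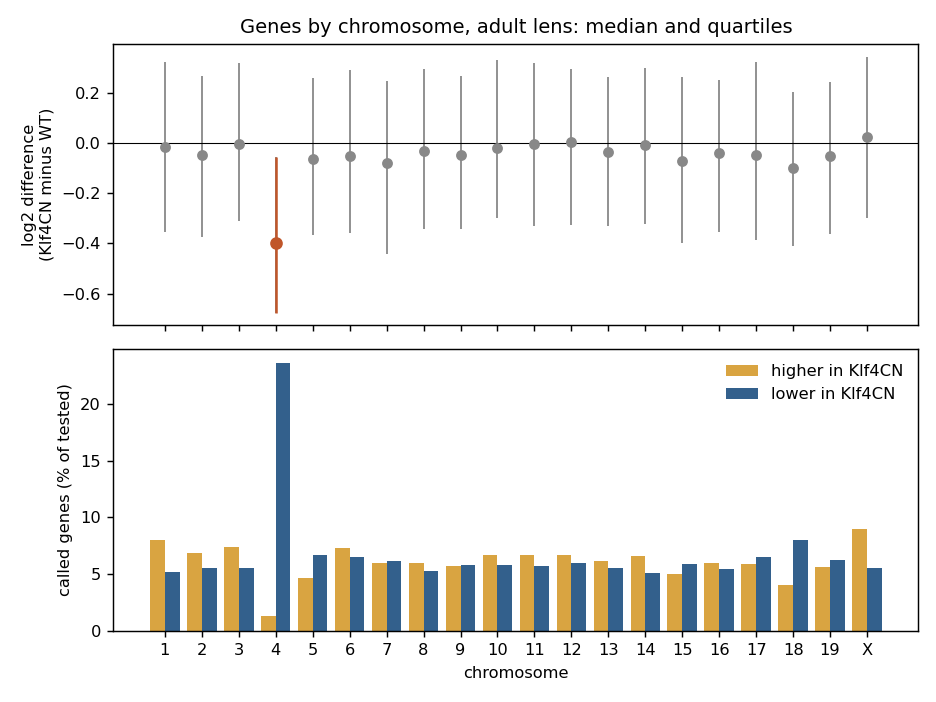
Upper panel, median log2 difference of the tested genes of each chromosome (points) with quartiles (bars), Klf4CN minus WT at PN56. Lower panel, genes called higher or lower in lenses labelled Klf4CN, as a percentage of the tested genes of the chromosome. Chromosome 4, at -0.40 and 23.7% called lower, lies apart from the other chromosomes.

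The shift was of like size on each array and along the whole chromosome. For all 4 pairings of a Klf4CN with a WT array the chromosome 4 median lay between -0.44 and -0.35, and the median elsewhere between -0.06 and -0.01. Relative to the other genes of the same array, and to the WT mean of its age, chromosome 4 stood at -0.331 on Klf4CN 1 and -0.380 on Klf4CN 2 at PN56. On the 6 embryonic arrays of both genotypes the same measure lay between -0.026 and 0.019. In 10 successive blocks of 82 genes along the chromosome the median ran from -0.50 to -0.36, with 14 to 26 falls in each. Bright and dim genes shared it, with medians of -0.26, -0.43, -0.51 and -0.40 in 4 classes of rising mean signal. The 625 other probe sets of these genes had a median of -0.35, against 0.01 for other probe sets elsewhere. With each array left out in turn the chromosome 4 median stayed between -0.43 and -0.33 with 102 to 188 falls, the fewest without WT 1, and 2.81% to 7.18% of genes elsewhere fell.

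**Figure D2:**
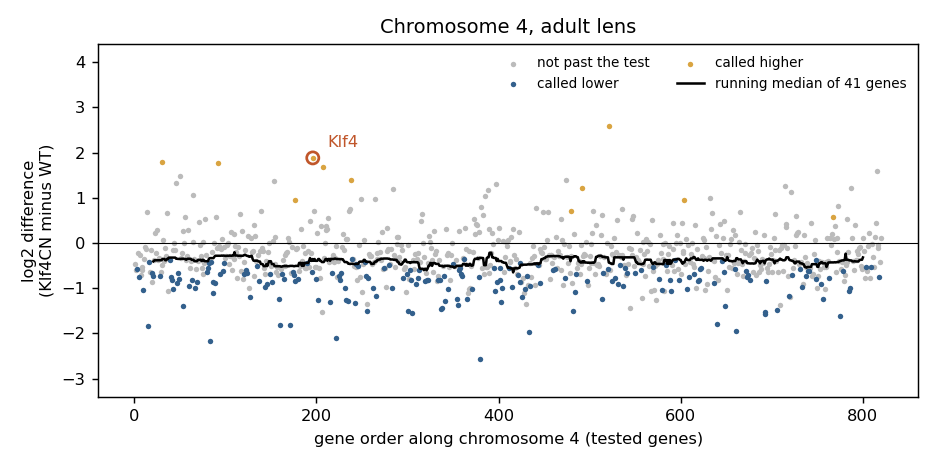
Log2 difference (Klf4CN minus WT, PN56) of the 820 tested genes of chromosome 4 in their order along it, coloured by call, with their running median (black) and Klf4 circled. The running median stays below 0 along the whole chromosome, while Klf4 lies at 1.88.

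The chromosome 4 genes named next were the 8 falls and 4 rises of smallest adjusted p, a choice made after their values were seen. Usp48, a ubiquitin protease, read 6658 and 6028 in WT and 2044 and 1610 in lenses labelled Klf4CN, a fall of 1.79 ± 0.156 (adjusted p = 4.5e-05). Cpt2, the inner mitochondrial membrane enzyme of fatty acid import, read 7685 and 6616 against 3050 and 2841 (-1.27 ± 0.112). Efhd2, a calcium-binding protein, was at 29084 and 26888 against 10388 and 8936 (-1.54 ± 0.16). These 3 genes were lower on both Klf4CN arrays by more than 2-fold. Btf3l4 (-1.25), Txndc12 (-1.37), Alad (-1.26), an enzyme of haem synthesis, Snapc3 (-1.17) and Rspo1 (-1.08), a secreted activator of Wnt signalling, fell as well. Against the trend, Hpca rose from 16.6 and 17.3 to 144.5 and 225.7, Lpar1, a lysophosphatidic acid receptor, rose by 1.68 and Sec61b, a subunit of the protein translocation channel, by 0.95. Without Klf4CN 2 Lpar1 was at 1.19 and still called. Of the 30 tested genes nearest to Klf4, 15 on each side, 1 rose and 4 fell, so that 16.7% were called. The share called was 24.9% over all 819 other tested genes of the chromosome and 13.0% over all genes.

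The effects of genotype at the 2 ages were also compared. The difference between the PN56 and E16.5 effects of genotype was called for 638 of 13440 genes (4.75%), 281 lower and 357 higher at PN56. Among its 820 tested genes chromosome 4 had 65 of the former and 3 of the latter, with a median difference between ages of -0.41. Chromosome 4 was examined after its PN56 values had been seen, and these values enter the difference. The counts are therefore a description and no further support. What set chromosome 4 apart was not tested. Without chromosome 4, and with genes of no chromosome kept, 1545 genes were called, of which 51.8% were higher.

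Of 8 sex-linked genes 2 rose, 1 fell and 5 did not pass, while with centring 1 rose and 0 fell. Xist, the RNA that coats the inactive X chromosome, read 1274.7 and 1382.8 in WT and 4064 and 4227 in lenses labelled Klf4CN, a rise of 1.63 ± 0.307 (adjusted p = 0.0053), with other probe sets at 0.07 and 1.80. The X-linked Eif2s3x, a translation initiation factor, was at 0.51 and Ddx3x, an RNA helicase, at -0.47, with other probe sets of Ddx3x at 0.04 and 0.17. Eif2s3x lost its call without WT 1, WT 2 or Klf4CN 1 (0.47, 0.56 and 0.38), and Ddx3x lost its call without WT 1 or Klf4CN 2 (-0.38 and -0.36). The Y-linked Uty read 109.7 and 107.7 in WT and 7.1 and 3.6 in lenses labelled Klf4CN (-2.55, adjusted p = 0.088), and Eif2s3y 306.8 and 517.6 against 40 and 119.8 (-2.25, adjusted p = 0.30). Their groups did not overlap, as held for 50.8% of all genes, and neither of these 2 Y-linked genes passed the test. The 432 tested X-linked genes had a median of 0.02, with 9.03% called higher and 5.56% lower. The part of the sexes pooled in each preparation in any result was not tested. Ddx3x (-0.09) was not called with probe sets averaged by gene.

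The largest rises included genes of varied roles. Alox12, a lipoxygenase that oxidises arachidonic acid, read 211.7 and 138.5 in WT and 3349 and 2532 in lenses labelled Klf4CN, a rise of 3.96 ± 0.232 (adjusted p = 4.931e-06). Igfbp2, which binds insulin-like growth factors outside the cell, went from 199.6 and 203.8 to 2196 and 2058 (3.30 ± 0.312), and Cdkn1a, encoding the cyclin-dependent kinase inhibitor p21, from 187.1 and 194.4 to 1816 and 1585 (3.05 ± 0.239). For all 3 both Klf4CN arrays were far above both WT arrays. Tinag, a basement membrane protein of kidney tubules, rose from 1172 and 1136 to 8503 and 9326 (2.93 ± 0.269), and Scg2, a secretory granule protein, from 311.0 and 566.5 to 3372 and 3169 (2.91 ± 0.39). Cabp5, a calcium-binding protein known from retinal neurons, rose from 201.6 and 128.6 to 1841 and 1722 (3.34 ± 0.232). Second probe sets were at 1.39 for Alox12, 2.77 for Cdkn1a, 4.85 for Cabp5, 2.10 for Ak5 and 0.99 for Foxo4. Lypd6b (3.32), Ak5 (3.13), an adenylate kinase, Fgd5 (3.12), Ush1c (3.00) and Foxo4 (2.96), a forkhead factor on the X chromosome, rose as well. Gm12338 and Gm13889, predicted genes, rose by 3.08 and 3.14. The follistatin gene Fst read 7.9 and 160.5 in WT and 549.1 and 568.3 in lenses labelled Klf4CN (3.14). Its WT arrays were far apart, and Fst lost its call without Klf4CN 2 (3.12) and was called at 1.70 without WT 1. Gm13889 (1.34) was not called with probe sets averaged by gene.

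Some rises started from next to no signal, and their size depends on the offset of 16. Pmaip1, whose product Noxa promotes apoptosis, was at 3.3 and 2.9 in WT and 656.0 and 607.6 in lenses labelled Klf4CN. Pdlim2, a PDZ and LIM domain protein of the cytoskeleton, went from 37.3 and 23.6 to 650.2 and 852.2, Alox15, a further lipoxygenase, from 13.7 and 22.4 to 420.1 and 421.3, and Rgs13, a regulator of G-protein signalling, from 22.7 and 4.6 to 333.6 and 446.2. Rftn2, a raft protein, was at 15.6 and 29.0 against 397.3 and 386.6. Both Klf4CN arrays were high for each of these 5 genes. Ddn was uneven, at 83.4 and 1234.7 in lenses labelled Klf4CN, with a difference of 3.57. Ddn lost its call without WT 1, WT 2 or Klf4CN 2 (3.86, 3.27 and 1.74) and was called at 5.39 without Klf4CN 1.

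Among the largest falls, Lrrc66, a leucine-rich repeat protein, read 1098 and 837.0 in WT and 155.0 and 94.0 in lenses labelled Klf4CN. Lrrc66 lost its call without WT 1 or Klf4CN 2 (-2.64 and -2.51). Eva1a, a membrane protein of autophagy and cell death, fell from 1237 and 1242 to 214.9 and 234.1, by 2.38 ± 0.171 (adjusted p = 1.396e-05). Ces5a, a carboxylesterase, fell from 29743 and 23544 to 6319 and 3869 (-2.42 ± 0.27), and Ankrd24, an ankyrin repeat protein, from 16781 and 18502 to 4074 and 3817 (-2.15 ± 0.163). The other probe sets of Ces5a and Ankrd24 were at -1.82 to -1.50, while those of Doc2b, Glb1l and Arhgap30, given below, were at -1.39, -0.72 and 0.39. Prokr1, a prokineticin receptor, was at 429.3 and 514.2 against 37.5 and 91.9, and Hebp1, a haem-binding protein, at 658.5 and 423.9 against 67.0 and 88.7. Signals of Magel2 (155.5 and 131.1 against 5.3 and 9.1), an imprinted gene, Zfp526 (160.6 and 144.3 against 14.3 and 4.6) and Dmbx1 (173.7 and 290.2 against 23.0 and 26.8), a homeobox gene on chromosome 4, were near the floor in lenses labelled Klf4CN. Further large falls were less even. Doc2b lost its call without WT 1, WT 2 or Klf4CN 1 (-2.85, -2.62 and -1.99), Cilp lost its call without WT 1, WT 2 or Klf4CN 2 (-2.44, -2.38 and -1.86), and Isoc2b lost its call without WT 1 or Klf4CN 2 (-2.23 and -2.27). Arhgap30 lost its call without WT 1 or Klf4CN 1 (-2.0 and -1.94), Kcns3 lost its call without WT 2 or Klf4CN 1 (-1.76 and -1.21), and Mup10 lost its call without WT 1 or Klf4CN 2 (-1.69 and -1.73). Glb1l lost its call without WT 1, WT 2 or Klf4CN 2 (-1.96, -2.08 and -1.36), and Fmo2 lost its call without WT 1, WT 2 or Klf4CN 2 (-2.80, -2.29 and -0.83) and was called at -4.26 without Klf4CN 1. Doc2b (-1.39) was not called with the probe set brightest at PN56. Kcns3 (-1.28) was not called with probe sets averaged by gene.

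**Figure D3:**
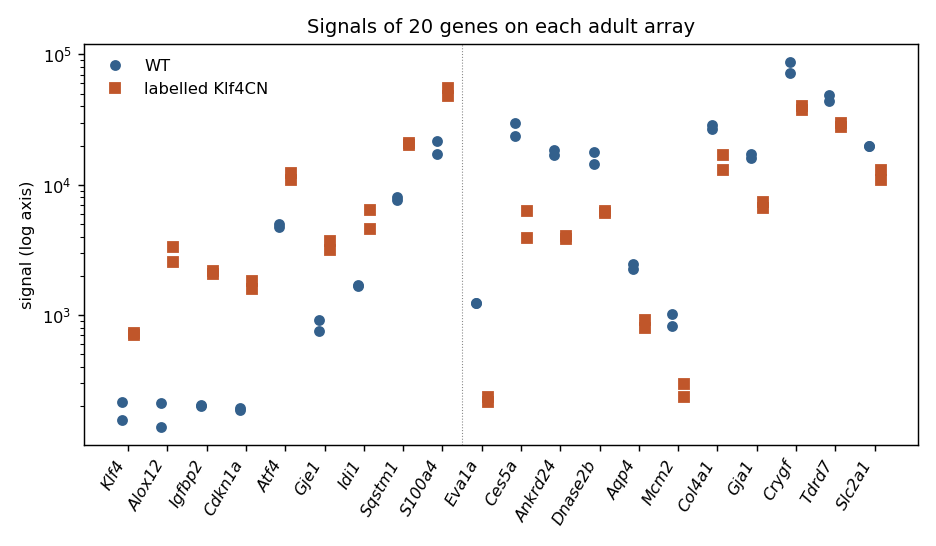
Signals (log axis) of 20 genes on each adult array, WT as circles and lenses labelled Klf4CN as squares; genes left of the dotted line rose and those right of it fell. In each gene, as in every called gene, the 2 Klf4CN arrays lie on one side of the 2 WT arrays.

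Promoters of genes with the largest changes are shown for the box to which Kruppel-like factors bind. The letters CACACCC, sought on both strands (GGGTGTG on the other) from 250 bases before to 50 after the start sites of RefSeq (GRCm38.p6), were in the promoter of 1095 of the 10843 tested genes that had one, 10.1%. The share was 9.36% for genes that rose, 10.6% for those that fell and 10.8% for the falls on chromosome 4. Of the 22 with a promoter among the 15 largest rises and 15 largest falls, 4 held it. These were Alox12 (chr11:70255416-70255542, minus strand, 112 bases before the start site), Lrrc66 (chr5:73632483-73632609, minus), Cilp (chr9:65264930-65265049, plus) and Arhgap30 (chr1:171388744-171388870, plus). They are printed below with 4 others among the genes described here, 3 that rose, Phlda3 (chr1:135765835-135765948, plus), Atf5 (chr7:44816744-44816870, minus) and Tgfbi (chr13:56609389-56609515, plus), and 1 that fell, Dnase2b (chr3:146615602-146615728, minus). Each stretch lies before the start site, runs 5′ to 3′ on the gene's strand and has the box in capitals.
Alox12: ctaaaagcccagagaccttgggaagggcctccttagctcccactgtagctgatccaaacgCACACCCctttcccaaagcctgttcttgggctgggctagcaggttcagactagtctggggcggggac
Lrrc66: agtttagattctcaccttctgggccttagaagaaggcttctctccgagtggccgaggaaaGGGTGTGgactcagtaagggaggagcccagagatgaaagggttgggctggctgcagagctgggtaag
Cilp: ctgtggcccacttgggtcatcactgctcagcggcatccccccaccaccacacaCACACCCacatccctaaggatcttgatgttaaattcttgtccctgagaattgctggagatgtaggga
Arhgap30: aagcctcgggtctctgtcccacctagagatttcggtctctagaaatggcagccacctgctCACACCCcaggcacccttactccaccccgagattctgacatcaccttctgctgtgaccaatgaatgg
Dnase2b: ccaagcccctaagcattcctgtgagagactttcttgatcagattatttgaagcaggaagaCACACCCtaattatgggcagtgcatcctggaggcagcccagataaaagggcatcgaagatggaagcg
Phlda3: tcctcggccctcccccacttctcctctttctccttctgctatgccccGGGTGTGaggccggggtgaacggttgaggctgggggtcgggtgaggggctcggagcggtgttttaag
Atf5: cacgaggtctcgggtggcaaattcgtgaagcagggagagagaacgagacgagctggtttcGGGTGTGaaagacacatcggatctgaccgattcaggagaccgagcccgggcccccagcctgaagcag
Tgfbi: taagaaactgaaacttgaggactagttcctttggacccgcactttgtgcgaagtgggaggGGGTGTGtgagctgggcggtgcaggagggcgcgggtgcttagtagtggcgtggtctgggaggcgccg
Dnase2b, Phlda3, Atf5 and Tgfbi were picked by hand from the genes described here. The 4 rises and 4 falls among these 8 genes are therefore no result. A match is a description of the letters only.

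Crystallins are the main proteins of the fibre. Of 14 crystallins 10 fell and 0 rose, with a median of -0.46, against -0.06 over all genes. Crygf, a gamma crystallin, read 71975 and 87142 in WT and 37306 and 40460 in lenses labelled Klf4CN, a fall of 1.03 ± 0.123 (adjusted p = 0.00038). The other 9 calls had falls of 0.44 to 0.60, such as Cryba2 from 96077 and 108168 to 66758 and 67703. Quantile normalization kept 1 of the 10 calls, with a median of -0.11, centring also 1, and 2 to 11 crystallins were called as arrays were left out, the fewest without WT 2. Hybridisation spikes, bright and dim, were lower as well: all 18 probe sets of the bio and cre spikes had both Klf4CN arrays below both WT arrays, one for cre at 102926 and 117568 against 71225 and 74903 and one for bioB at 3306 and 3417 against 2112 and 1936. Their part in the result was not tested. Whether fewer fibre cells or less RNA per cell lie behind any fall cannot be told apart in whole lenses.

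Of 23 genes of fibre membrane, cytoskeleton and denucleation, 8 fell and 2 rose, and 4 to 8 fell as arrays were left out, the fewest without WT 2. With arrays centred on their medians 2 rose and 4 fell, with a median of -0.12. Quantile normalization gave 1 rise and 6 falls, also with a median of -0.12. Dnase2b, the lysosomal DNase of fibre denucleation, read 17908 and 14335 in WT and 6053 and 6273 in lenses labelled Klf4CN, a fall of 1.38 ± 0.194 (adjusted p = 0.0010). Bfsp1, filensin of the beaded filament, fell from 99782 and 109756 to 62711 and 63081 (-0.73), Birc7, an inhibitor of apoptosis known in the lens, from 10751 and 13249 to 6013 and 5733 (-1.02), and Tdrd7, an RNA granule protein tied to cataract and a chromosome 4 gene, from 43742 and 48521 to 29804 and 27901 (-0.68). For each, both Klf4CN arrays were below both WT arrays. Gje1, a connexin family gene of the lens, went the other way, from 750.0 and 915.0 to 3155 and 3714, a rise of 2.03 ± 0.121 (adjusted p = 4.931e-06). Bfsp2, phakinin, was at -0.46, Grifin at -0.38 and Ank2, an ankyrin, at 0.53. Bfsp2 lost its call without WT 1 or WT 2 (-0.49 and -0.44), Grifin lost its call without WT 2 or Klf4CN 1 (-0.31 and -0.32), and Ank2 lost its call without WT 1 or Klf4CN 1 (0.38 and 0.38). Grifin (-0.23) was not called with centring. Grifin (-0.08) was not called with quantile normalization.

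Of 26 lens epithelium genes 9 fell, 0 rose and 17 did not pass, with a median of -0.36. Sulf1, which trims heparan sulphate, read 1546 and 1381 in WT and 888.3 and 740.4 in lenses labelled Klf4CN (-0.84). Aqp1, the epithelial water channel, fell from 5235 and 4479 to 2602 and 2235 (-1.0 ± 0.186, adjusted p = 0.0048), Fgfr2, a receptor for fibroblast growth factors, from 4253 and 3860 to 2659 and 2043 (-0.79, second probe set -0.22), and Cdkn1c, encoding the inhibitor p57, from 8456 and 8887 to 6196 and 4656 (-0.69). Each was lower on both arrays. Gja1, connexin 43, fell from 16069 and 17365 to 6650 and 7344 (-1.25), and Foxe3, an epithelial forkhead factor on chromosome 4, was at -1.03. Gja1 lost its call without any 1 of the 4 (-1.33 to -1.18), and Foxe3 lost its call without WT 2 or Klf4CN 2 (-0.74 and -0.85). The number of falls ran from 4 to 11 over arrays left out and was 2 with centring. With quantile normalization 10 of the 26 fell. Fgfr2 (-0.15) was not called with probe sets averaged by gene.

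Of 21 genes of the capsule, the basement membrane around the lens, 4 fell and 0 rose. With arrays centred on their medians 0 rose and 1 fell, and with quantile normalization 0 rose and 4 fell. Col4a1, a chain of type IV collagen, read 28964 and 26561 in WT and 17040 and 12933 in lenses labelled Klf4CN, a fall of 0.90 ± 0.142 (adjusted p = 0.0019). Col4a5 was at -0.68, Nid1, nidogen, at -0.38 and Pxdn, which cross-links type IV collagen, at -0.67. Col4a5 lost its call without WT 2 or Klf4CN 2 (-0.49 and -0.60), Nid1 lost its call without WT 1, WT 2 or Klf4CN 2 (-0.39, -0.38 and -0.31), and Pxdn lost its call without WT 1 or Klf4CN 2 (-0.49 and -0.41). Without Klf4CN 2, then, 1 fall was left. Among 19 integrins and matrix receptors, Cd151 was called lower (-0.60). Cd151 lost its call without WT 1 or Klf4CN 1 (-0.38 and -0.50). Ctnna2, alpha-catenin 2, was the 1 called gene of 25 junction and polarity genes, at 6127 and 5899 against 3636 and 3373 (-0.78 ± 0.117). Nid1 (-0.24) was not called with centring.

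**Figure D4:**
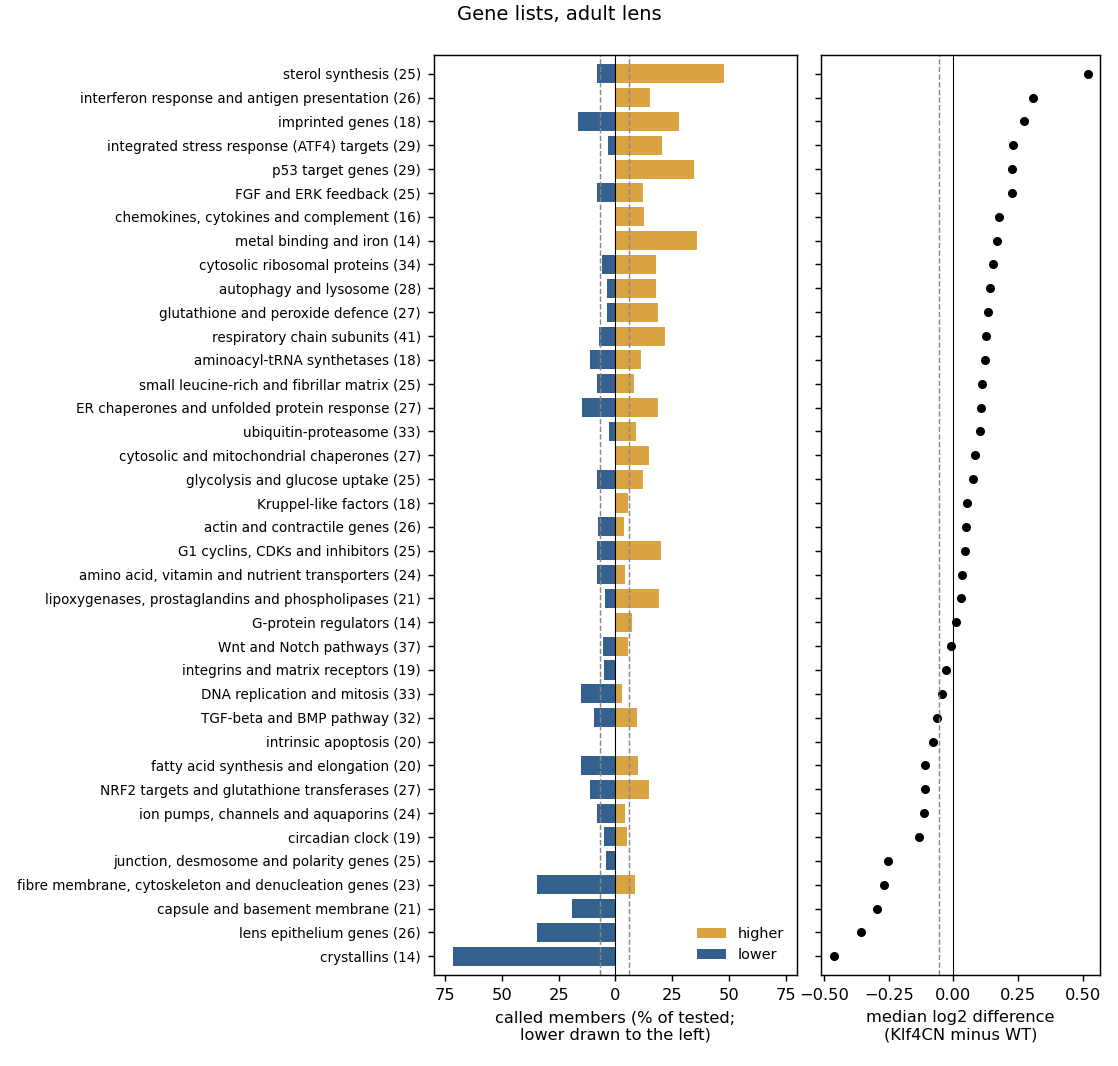
Left, members of each gene list called higher or lower in lenses labelled Klf4CN, as a percentage of those tested (number in brackets); dashed lines mark 6.04% and 6.98%, the shares over all genes. Right, median log2 difference of each list, with all tested genes at -0.06 (dashed). Crystallins, at -0.46, and sterol synthesis, at 0.52, lie farthest from the median of all genes among the lists of lens and pathway genes.

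Among p53 target genes 10 of 29 rose and 0 fell, with a median of 0.23, and 6 to 10 rose as arrays were left out, the fewest without Klf4CN 2. Besides Cdkn1a and Pmaip1 above, Phlda3, an inhibitor of AKT signalling, read 1221 and 859.7 in WT and 2968 and 2833 in lenses labelled Klf4CN, a rise of 1.49 ± 0.188 (adjusted p = 0.00055). Perp, a desmosome-associated protein, rose from 4357 and 4560 to 9182 and 9225 (1.04), and Aen, a nuclease, from 444.5 and 565.2 to 996.9 and 934.5 (0.92). Both arrays were high in each case. Btg2 (0.74), Plk2 (2.40), Apaf1 (1.08), the apoptosome scaffold, and Ccng1 (0.65) were also called. Btg2 lost its call without Klf4CN 2 (0.60), Plk2 lost its call without Klf4CN 1 or Klf4CN 2 (2.54 and 2.25) and was called at 3.82 without WT 1 and 0.97 without WT 2, and Apaf1 lost its call without WT 2, Klf4CN 1 or Klf4CN 2 (0.78, 1.14 and 1.02). Ccng1 lost its call without any 1 of the 4 (0.57 to 0.73). By limma 0 of 20 genes of intrinsic apoptosis were called, and 4 had an unadjusted p under 0.05. That list leaves out Pmaip1 and Apaf1, which were called and are counted here among p53 targets. Bad, Bmf and Birc5 were at 0.57, 0.71 and 0.66 and Bcl2l1 at -0.31, none past the test. Plk2 (0.19) was not called with probe sets averaged by gene.

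Of 25 G1 cyclins, kinases and inhibitors 5 rose and 2 fell, and with arrays centred on their medians 5 rose and 0 fell. Ccnd2, cyclin D2, read 3681 and 3422 in WT and 8092 and 6342 in lenses labelled Klf4CN, a rise of 1.01 ± 0.114 (adjusted p = 0.00028), and E2f6, a repressor of the E2F family, 733.3 and 538.1 against 1348 and 1049 (0.90). Cdkn1b, encoding the inhibitor p27, rose from 576.8 and 950.8 to 1458 and 1436 (0.95, or 0.60 without WT 1). E2f1 rose by 1.49 in a dim probe set (31.2 and 35.2 against 104.1 and 142.8), and its other probe set was at -0.24. The 2 falls were Cdkn1c, encoding the inhibitor p57 and given above (-0.69), and Skp2 (-0.94). Skp2 depended on single arrays, at -0.53 without WT 2 and -0.60 without Klf4CN 2. E2f1 (0.31) and Skp2 (-0.48) were not called with probe sets averaged by gene.

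Of 33 genes of DNA replication and mitosis 5 fell and 1 rose, with a median of -0.04, near the -0.06 of all genes. With arrays centred on their medians 0 rose and 3 fell. Quantile normalization gave 4 rises and 5 falls, with a median of 0.08. Mcm2, a subunit of the replicative helicase, read 830.5 and 1016 in WT and 298.0 and 233.2 in lenses labelled Klf4CN, a fall of 1.74 ± 0.215 (adjusted p = 0.00047), although a second probe set was at -0.03. Mcm6 (-1.56), Mcm10 (-1.65), Ccna2 (-0.98), cyclin A2, and Aurka (-1.19), a mitotic kinase, were lower on both arrays too. Mcm6 lost its call without WT 1 (-1.44) and was called at -0.94 without Klf4CN 2, Mcm10 lost its call without WT 1 or Klf4CN 2 (-1.61 and -0.94), and Ccna2 lost its call without WT 1, WT 2 or Klf4CN 2 (-0.96, -1.01 and -0.72). Aurka lost its call without any 1 of the 4 (-1.38 to -1.0). Bub1 was called higher at signals of 10.8 and 9.2 against 26.6 and 47.2, while its second probe set was at -2.11. Aurka (-0.79), Bub1 (-0.56), Mcm10 (-0.90) and Mcm6 (-0.83) were not called with probe sets averaged by gene. Bub1 (0.44) was not called with an offset of 64. Ccna2 (-0.47) was not called with the probe set brightest at PN56.

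Genes of the integrated stress response, in which ATF4 drives amino acid and redox genes, had 6 of 29 called higher and 1 lower, with a median of 0.23. Atf4 itself read 5032 and 4734 in WT and 10910 and 12311 in lenses labelled Klf4CN, a rise of 1.25 ± 0.096 (adjusted p = 1.843e-05), and its second probe set was at 1.25. Atf5 rose from 551.9 and 820.1 to 2807 and 2419 (1.93), Eif4ebp1, a repressor of translation initiation, from 508.0 and 602.6 to 1159 and 1526 (1.24), and Asns, asparagine synthetase, from 427.9 and 180.3 to 1061 and 1173 (1.94). Both Klf4CN arrays were above both WT arrays for all of these. Trib3 was at 2.51 and Aldh1l2 at 1.33. Trib3 lost its call without Klf4CN 1 (2.09), and Aldh1l2 lost its call without Klf4CN 2 (1.35). Slc3a2, a subunit of amino acid exchangers, was called at -0.42. Slc3a2 lost its call without WT 1, Klf4CN 1 or Klf4CN 2 (-0.26, -0.44 and -0.40). Slc3a2 (-0.27) was not called with centring.

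Of 27 protein folding genes of the endoplasmic reticulum 5 rose and 4 fell. Canx, calnexin, rose from 6243 and 7348 to 9971 and 10823 (0.62 ± 0.105, adjusted p = 0.0029), Dnajb9, a co-chaperone, from 5624 and 5289 to 7968 and 9160 (0.65), and Selenos from 3939 and 4011 to 6356 and 5825 (0.61). Sdf2l1 rose from 34.2 and 68.6 to 206.4 and 176.9 (1.67). Derl1, of the degradation pathway, fell from 14353 and 12432 to 8868 and 9284 (-0.56), and Hspa5, the main chaperone of this compartment, from 20540 and 17342 to 12514 and 13560 (-0.53). Hspa5 lost its call without WT 1 (-0.41). With arrays centred on their medians 4 rose and 0 fell among these, so the falls were not called under that scaling. With quantile normalization 5 rose and 5 fell. In the cytosol and mitochondria 4 of 27 chaperones rose and 0 fell, led by Hsph1 at 1514 and 1483 against 2897 and 2784 (0.92). Hspe1 was at 0.82, Hspa4l at 0.60 and Hspd1 at 0.38. Hspe1 lost its call without WT 1 or Klf4CN 2 (0.55 and 0.58), Hspa4l lost its call without WT 1 or Klf4CN 2 (0.52 and 0.58), and Hspd1 lost its call without any 1 of the 4 (0.36 to 0.41). Aminoacyl-tRNA synthetases, some of them ATF4 targets, had 2 of 18 up, among them Iars (0.51), and 2 down, among them Hars at 5414 and 6447 against 3285 and 3776 (-0.74). Derl1 (-0.25) was not called with probe sets averaged by gene.

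Of 25 sterol synthesis genes 12 rose, 2 fell and 11 did not pass, with a median of 0.52. Along the pathway, Hmgcs1 at its entry rose from 5247 and 5067 to 7526 and 7276 (0.52), Pmvk from 1171 and 1075 to 1783 and 1700 (0.63), Idi1 from 1665 and 1686 to 4573 and 6366 (1.68 ± 0.159, adjusted p = 8.022e-05) and Fdft1, which commits it to sterols, from 6785 and 5817 to 8997 and 10028 (0.60). Of the later steps, Sqle rose from 1476 and 1264 to 3052 and 2689 (1.06), Cyp51 from 1625 and 1734 to 2740 and 2664 (0.68) and Nsdhl from 1566 and 1389 to 2650 and 2582 (0.82). Fdps, Lss, Msmo1, Sc5d and Ebp were also called higher, but lost their call at least without Klf4CN 2 (differences not given here). Dhcr7, which carries out a final reduction to cholesterol, fell from 1916 and 1749 to 960.7 and 895.1 (-0.97 ± 0.187, adjusted p = 0.0059). Ggps1, of the isoprenoid branch, was called lower as well, but lost its call at least without WT 1 or Klf4CN 2. The number of rises was 7 to 12 as arrays were left out, lowest without Klf4CN 2, and 12 with centring and with quantile normalization alike. Fdft1 (0.39) was not called with probe sets averaged by gene.

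Scd1, stearoyl-CoA desaturase, rose from 1793 and 2016 to 4865 and 4295 (1.26 ± 0.222, adjusted p = 0.0037), while Elovl1, an elongase on chromosome 4, fell from 3223 and 2634 to 1537 and 1654 (-0.86) and Fads3, of the desaturase cluster, from 1602 and 1547 to 852.9 and 734.5 (-0.98). In all, 2 of 20 fatty acid genes rose and 3 fell, and 1 and 2 with centring. Of 21 genes of lipoxygenases, prostaglandins and phospholipases 4 rose and 1 fell. Besides Alox12 and Alox15, the prostaglandin F receptor Ptgfr rose from 68.6 and 15.3 to 753.2 and 630.2 (3.78 ± 0.357, adjusted p = 8.022e-05), with rises of 1.97 to 3.31 in its 4 other probe sets. Alox5 was at 1.51 and Pla2g4a, which releases arachidonic acid, at -0.61. Alox5 lost its call without WT 2 or Klf4CN 2 (1.17 and 1.41), and Pla2g4a lost its call without WT 2 or Klf4CN 2 (-0.45 and -0.52). The list's median of 0.03 was near that of all genes, so these rises were large but few. Fads3 (-0.48) was not called with probe sets averaged by gene.

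Of 27 genes of glutathione and peroxide defence 5 rose and 1 fell, and with arrays centred on their medians 5 rose and 0 fell. Gpx1, a glutathione peroxidase, read 5271 and 5571 in WT and 12632 and 12593 in lenses labelled Klf4CN, a rise of 1.22 ± 0.091 (adjusted p = 1.544e-05), and Gpx4, which reduces lipid peroxides, 9327 and 8388 against 15449 and 17923 (0.91). Catalase, Cat, was at 5311 and 4998 against 2915 and 3682 (-0.65). Prdx4, Srxn1 and Sod1 were at 0.50, 0.99 and 0.61. Cat lost its call without WT 1 or Klf4CN 1 (-0.61 and -0.48), Prdx4 lost its call without WT 1 or Klf4CN 2 (0.43 and 0.46), and Srxn1 lost its call without WT 1 or Klf4CN 1 (0.89 and 0.80). Sod1 lost its call without WT 1, Klf4CN 1 or Klf4CN 2 (0.33, 0.62 and 0.59). Of 27 glutathione transferases and other NRF2 targets 4 rose and 3 fell, or 4 and 1 with centring. Gstp1 rose from 30385 and 29862 to 47153 and 52594 (0.72) and Gstm7 from 1014 and 1036 to 1719 and 1930 (0.82), while Aldh1a7, an aldehyde dehydrogenase, fell from 5425 and 4918 to 2666 and 2447 (-1.01). Aldh3a1, an aldehyde dehydrogenase abundant in cornea, fell from 13108 and 10951 to 6376 and 4964 (-1.09). Aldh3a1 lost its call without WT 1 or Klf4CN 2 (-0.96 and -0.91). Prdx4 (0.14), Sod1 (-0.07) and Srxn1 (0.26) were not called with probe sets averaged by gene.

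Sqstm1, the receptor p62, read 7644 and 7994 in WT and 20157 and 20912 in lenses labelled Klf4CN, a rise of 1.39 ± 0.093 (adjusted p = 8.777e-06). Ctsb, a lysosomal protease, rose from 5683 and 5363 to 8942 and 7896 (0.60), and Map1lc3b from 7567 and 7307 to 13589 and 14015 (0.89), with other probe sets at -0.18 and 0.04. Of 28 autophagy and lysosome genes 5 rose and 1, Tfeb, was called lower (-1.43). Tfeb lost its call without WT 1 or Klf4CN 1 (-1.15 and -1.18). Of 14 metal genes 5 rose and 0 fell: the metallothioneins Mt1, from 357.3 and 599.7 to 1349 and 1850 (1.73 ± 0.243), and Mt2, from 183.8 and 324.4 to 764.3 and 1079 (1.83 ± 0.317), and Tfrc, the transferrin receptor, from 2248 and 2084 to 3639 and 2991 (0.60). Mt3 was uneven, at 86.4 and 546.9 in lenses labelled Klf4CN (2.55), and Fth1, ferritin heavy chain, was at 0.37. Mt3 lost its call without WT 1, WT 2 or Klf4CN 2 (2.58, 2.52 and 1.32), and Fth1 lost its call without WT 1 or Klf4CN 2 (0.23 and 0.26). Proteasome and ubiquitin genes had 3 of 33 up and 1 down, 12.1% called against 13.0% of all genes. Psme4 (0.74) and Psma5 (0.59) were among the rises. Ctsb (0.14), Map1lc3b (0.30) and Psma5 (0.37) were not called with probe sets averaged by gene.

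Of 34 cytosolic ribosomal protein genes 6 rose and 2 fell (23.5% called). The 41 respiratory chain subunits had 9 rises and 3 falls (29.3% called). The share called was 13.0% over all genes and 29.0% in the brightest of the 10 classes by adult signal. With arrays centred on their medians 10 rose and 0 fell in each list. Rps27l read 1845 and 3763 in WT and 7171 and 12671 in lenses labelled Klf4CN (1.85 ± 0.282, adjusted p = 0.0017), Rpl22l1 9164 and 16327 against 26906 and 40715 (1.43), and Cox6c, of cytochrome oxidase, 6537 and 10697 against 15665 and 25708 (1.26). Replicate 2 was above replicate 1 in both genotypes for all 6 and all 9 rising genes; in WT this held for 33 of the 34 ribosomal genes and 26 of the 41 respiratory ones, and in lenses labelled Klf4CN for 31 and 34. As arrays were left out the ribosomal median ran from -0.05 without WT 1 to 0.36 without WT 2 and its rises from 2 to 11, and respiratory rises from 2 to 16. The part of this order of the arrays in the rises was not tested. Falls came with Rps6, at 5605 and 5520 against 3592 and 3988 (-0.55, second probe set 0.57), and Sdhb, of succinate dehydrogenase, at 12871 and 12236 against 7913 and 8419 (-0.62 ± 0.102, adjusted p = 0.0025), both on chromosome 4. Rps6 (0.01) was not called with probe sets averaged by gene.

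Slc2a1, the glucose transporter GLUT1, on chromosome 4, read 19691 and 19796 in WT and 10900 and 12950 in lenses labelled Klf4CN, a fall of 0.73 ± 0.102 (adjusted p = 0.00097). Slc16a12, a creatine transporter whose gene is tied to cataract, fell from 1630 and 1899 to 825.8 and 714.2 (-1.18 ± 0.163). The water channel Aqp4 fell from 2253 and 2450 to 797.2 and 912.6 (-1.44 ± 0.185, adjusted p = 0.00058), in addition to Aqp1. Among hypoxia-responsive genes Vegfa rose from 269.9 and 391.2 to 855.3 and 750.5 (1.26) and Egln3, a prolyl hydroxylase, from 244.3 and 236.8 to 687.3 and 623.8 (1.39), though their second probe sets were at 0.07 and -0.16. Pkm was at 0.54 and Slc16a3 at -1.49. Pkm lost its call without WT 2 or Klf4CN 1 (0.43 and 0.47), and Slc16a3 lost its call without WT 1 or Klf4CN 2 (-1.09 and -0.81). Of 25 glycolysis and glucose genes 3 rose and 2 fell, of 24 nutrient transporters 1 and 2, and of 24 pumps and channels 1 and 2. Egln3 (0.61) was not called with probe sets averaged by gene.

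In the TGF-beta and BMP pathway, which acts in lens development, 3 of 32 rose and 3 fell, and with arrays centred on their medians 3 rose and 1 fell. Tgfbi, a matrix protein induced by TGF-beta, rose from 188.8 and 245.1 to 1089 and 858.7 (2.09 ± 0.352, adjusted p = 0.0029), and Smad1, which carries BMP signals, fell from 4713 and 4204 to 2496 and 1697 (-1.11 ± 0.19). The receptor Tgfbr1, on chromosome 4, was at -0.65, the ligand Tgfb2 at -0.74 and Tgfbr2 at 1.10. Tgfbr1 lost its call without WT 2 (-0.52), Tgfb2 lost its call without WT 2 or Klf4CN 2 (-0.69 and -0.50), and Tgfbr2 lost its call without WT 1, Klf4CN 1 or Klf4CN 2 (0.59, 1.0 and 1.2). Of 25 FGF and ERK genes 3 rose and 2 fell, and with centring 4 rose and 0 fell. The feedback phosphatase Dusp4 rose from 97.4 and 136.7 to 508.2 and 575.5 (2.08 ± 0.253) and the ERK-responsive factor Etv5 from 1414 and 1324 to 2762 and 2276 (0.87), while the receptor Fgfr2 was called lower in 1 of its 2 probe sets. Spred1 and Spry2, inhibitors of the pathway, were at 0.78 and -0.40. Spred1 lost its call without any 1 of the 4 (0.64 to 0.92), and Spry2 lost its call without any 1 of the 4 (-0.45 to -0.35). Of 37 Wnt and Notch genes 2 rose and 2 fell, with centring 2 rose and 0 fell, and the Notch ligand Jag1 rose from 3921 and 4293 to 6564 and 6172 (0.63 ± 0.113, adjusted p = 0.0039). Spred1 (0.19), Spry2 (-0.09), Tgfb2 (-0.40), Tgfbr1 (-0.24) and Tgfbr2 (0.52) were not called with probe sets averaged by gene. Spry2 (-0.25) was not called with centring.

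Of 18 imprinted genes 5 rose and 3 fell, or 5 and 1 with centring. Mest rose from 1339 and 1387 to 2053 and 2422 (0.70 ± 0.107, adjusted p = 0.0017) and Peg3 from 697.6 and 684.2 to 1222 and 1232 (0.81), with other probe sets at -0.04 and 0.42. Ube3a fell from 2019 and 1934 to 1204 and 1244 (-0.68), next to Magel2 and Cdkn1c above. Nnat was at 0.79, Igf2r at 0.89 and Igf2 at 2.18, all called. Nnat lost its call without any 1 of the 4 (0.73 to 0.86), Igf2r lost its call without any 1 of the 4 (0.72 to 1.07), and Igf2 lost its call without Klf4CN 1 or Klf4CN 2 (2.28 and 2.09) and was called at 0.92 without WT 1 and 3.44 without WT 2. Of 14 regulators of G-protein signalling only Rgs13 was called, and of 19 clock genes Hlf fell from 1701 and 1732 to 911.7 and 880.0 (-0.93) and Rora was at 0.85. Rora lost its call without WT 1 or Klf4CN 1 (0.62 and 0.75). Hlf (-0.24) and Peg3 (0.42) were not called with the probe set brightest at PN56. Hlf (-0.58), Igf2 (0.54), Peg3 (-0.07) and Ube3a (-0.25) were not called with probe sets averaged by gene.

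Of 26 genes of interferon response and antigen presentation 4 rose and 0 fell, with a median of 0.31. The share called was 15.4%, near the 13.0% of all genes. The class I heavy chain H2-D1 read 347.4 and 285.2 in WT and 963.4 and 937.8 in lenses labelled Klf4CN (1.55 ± 0.23, adjusted p = 0.00147), and its partner B2m 1202 and 1434 against 2953 and 4974 (1.53). H2-K1 was at 1.15 and Rsad2 at 1.61. Ccl2 (1.84) and Cxcl12 (1.42) were the 2 called of 16 chemokine and complement genes. H2-K1 lost its call without WT 1, Klf4CN 1 or Klf4CN 2 (0.61, 0.97 and 1.32), Rsad2 lost its call without WT 1 or Klf4CN 1 (1.48 and 1.16), and Ccl2 lost its call without WT 1 or Klf4CN 1 (1.71 and 1.62). Cxcl12 lost its call without WT 1, Klf4CN 1 or Klf4CN 2 (1.09, 1.11 and 1.72). Beside them stood macrophage markers: 3 of 18 rose, Cd68 from 8.1 and 48.9 to 268.7 and 230.4 (2.74 ± 0.442, adjusted p = 0.0022), Tyrobp from 5.7 and 25.1 to 165.5 and 125.7 (2.43 ± 0.316) and Lgals3, also an epithelial galectin (0.57). Lgals3 lost its call without WT 2 or Klf4CN 2 (0.48 and 0.53). Mrc1, Cx3cr1 and Laptm5 were on the lower side, and the list's median was -0.11, or 0.01 with centring. The part of macrophages in the rises of H2-D1 and B2m was not tested. Cxcl12 (-0.20), H2-D1 (0.53), H2-K1 (0.42) and Rsad2 (0.16) were not called with probe sets averaged by gene. Lgals3 (0.38) was not called with quantile normalization. Rsad2 (-0.54) was not called with the probe set brightest at PN56. Rsad2 (0.82) was not called with an offset of 64.

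Markers of other tissues that a dissected lens can carry were read as well. All 15 tested markers of photoreceptors had a difference above 0, with 0 called by limma and 0 at an unadjusted p under 0.05. Pdc read 1368 and 1585 in WT and 3821 and 1387 in lenses labelled Klf4CN, and the list's median of 0.45 was -0.09 without Klf4CN 1. Of 10 pigment cell markers 9 were on the lower side, with 0 called by limma, 2 at an unadjusted p under 0.05 and a median of -0.59. Dct read 3304 and 4140 against 1557 and 1150, and Tyrp1, a chromosome 4 gene, 930.5 and 1393 against 416.2 and 462.5. Both Klf4CN arrays were below both WT arrays for these 2 genes, neither of them called. The groups did not overlap for 6 of the 10 markers and for 50.8% of all genes, so this adds no support. Among other retinal markers Cabp5 and Gfap (1.60) were called higher and Dkk3, also on the lens epithelium list, lower (-0.44, second probe set 0.12). Dkk3 lost its call without WT 1 or Klf4CN 2 (-0.40 and -0.36). It was not called with centring (-0.29) or with probe sets averaged by gene (-0.16). Calb2 and Slc17a6 were at -1.83 and -2.16, not past the test. Of 14 blood and vessel markers Tie1, on chromosome 4, was called at signals of 28.9 and 24.6 against 2.2 and 3.2. Gfap lost its call without WT 2 or Klf4CN 2 (0.94 and 1.15), and Tie1 lost its call without WT 1, Klf4CN 1 or Klf4CN 2 (-1.12, -1.15 and -1.23). Of 13 corneal and ciliary markers Car2, carbonic anhydrase 2, rose from 4426 and 4782 to 11757 and 10615 (1.28 ± 0.138) and Opn3, an opsin, fell from 591.1 and 826.8 to 139.1 and 200.4 (-1.96 ± 0.262), along with Aqp4 and Aldh3a1 above. By limma 0 of 7 muscle and nerve markers were called, and 0 had an unadjusted p under 0.05. The part of carried tissue in the results above was not tested. Gfap (0.33) was not called with probe sets averaged by gene. Tie1 (-0.44) was not called with an offset of 64.

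Matrix and contractile genes showed few calls. Of 25 fibrillar and leucine-rich matrix genes Mmp2 (1.85), a gelatinase, and Col3a1 (1.48) were called higher, and Bgn (-1.15), biglycan, and Ogn (-0.33) lower. Mmp2 lost its call without WT 2 or Klf4CN 1 (1.07 and 1.42), Col3a1 lost its call without WT 1 or Klf4CN 2 (0.89 and 0.85), and Bgn lost its call without any 1 of the 4 (-1.42 to -0.88). Ogn lost its call without any 1 of the 4 (-0.37 to -0.29). Acta2, smooth muscle actin, fell from 29598 and 25801 to 16490 and 18787 (-0.65) and Actb, beta actin, by 0.38, 2 of 26 contractile and actin genes, of which 0 fell with centring. Acta2 lost its call without WT 1 (-0.55), and Actb lost its call without WT 2 or Klf4CN 2 (-0.31 and -0.36). The other probe set of Actb was at 0.41. S100a4, a calcium-binding protein of motile cells, was among the brightest rises, from 17313 and 21705 to 47862 and 55233 (1.41 ± 0.125, adjusted p = 4.974e-05). Among the 18 Kruppel-like factors tested Klf4 was the only call; Klf5, its close relative in epithelia, read 107.0 and 126.3 against 282.8 and 276.6 (1.16, adjusted p = 0.072) and Klf16 796.5 and 949.6 against 630.4 and 467.1 (-0.67, adjusted p = 0.062). Actb (-0.23) and Ogn (-0.18) were not called with centring. Actb (0.01), Bgn (-0.74) and Col3a1 (-0.09) were not called with probe sets averaged by gene. Actb (-0.10) was not called with quantile normalization. Col3a1 (0.75) was not called with an offset of 64. Mmp2 (0.69) was not called with the probe set brightest at PN56.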

How the data were processed

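Whole lenses were profiled on Affymetrix Mouse Genome 430 2.0 arrays. The deposited values are linear intensities per probe set, made by the authors with GCOS 1.4 per the submitters' processing notes, and each array has a trimmed mean of 500. Of 45101 probe sets, 34945 had 1 gene symbol and 64 were controls. The brightest probe set by mean log2(signal + 16) over the 10 arrays stood for its gene, and 13440 genes at or above the 40th percentile (a signal of 45.09) were tested. limma 3.58.1 in R 4.3.3 fitted 4 group means over all 10 arrays with an intensity trend, without a replicate block, and genes with a two-sided Benjamini-Hochberg adjusted p under 0.05 were called. With 2 arrays a group, the number of arrays limits the precision. Samples were grouped by their titles.

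The members and gene lists were chosen with earlier results of these data known. Genes were named by rule: Klf4, the 15 largest rises and 15 largest falls (lower group mean at least 32), the 6 largest each way below that, the 10 brightest each way and up to 8 of smallest p in each list. Chromosome 4 and its genes were examined after the values were seen. Alternatives covered the offset, filter, scaling, probe set choice, variance model, threshold, replicate block and each array left out.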

Additional observations from a re-analysis of the deposited data

Results flagged for a closer look

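The genotype difference on chromosome 4 differed between the ages. By limma's test of the difference between the PN56 and E16.5 effects, 65 of 820 chromosome 4 genes had a lower effect at PN56. A higher one was found for 3, and the median difference was -0.41. The PN56 values, seen before chromosome 4 was examined, enter this difference, so the counts are a description. Over all genes 281 were lower and 357 higher. What sets the ages apart was not tested.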

How the results depend on the processing

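The count of 1750 calls was 806 with the PN56 arrays alone, 637 with array weights, 1083 with arrays centred on their medians, 1073 with probe sets averaged by gene, 1165 with no intensity trend, 674 at an adjusted p under 0.01 and 620 with at least 2-fold required. With each array left out it ran from 1061 to 1906. The percentage of calls that were higher, 46.4, was 56.83 with array weights and 74.15 with centring, and 42.6 to 57.74 with an array left out. The chromosome 4 median minus that of other genes, -0.3633, was -0.3958 with a filter at the 60th percentile, -0.3068 with the mean of probe sets, -0.3037 with no filter and -0.3027 with an offset of 64, and -0.3852 to -0.3309 with an array left out. With the replicate block 2150 genes were called, 1676 of them also without it. The plan had no replicate block, so the numbers were not taken as pairs. Over all genes the deviations of same-numbered arrays correlated at 0.043. A value over all genes cannot exclude an order shared by some of them. Replicate 2 read above replicate 1 in both genotypes for most ribosomal genes (33 and 31 of 34). Of 234 called genes followed over 23 settings, 151 lost the call in at least 1 and 11 turned direction: under quantile normalization Cd24a (0.02177) and Tpt1 (0.02937); with the mean of probe sets Sod1 (-0.06547), Rps6 (0.007019), Actb (0.01427), Cxcl12 (-0.2022), Col3a1 (-0.09029), Peg3 (-0.0679) and Bub1 (-0.5561); with the brightest PN56 probe set Bub1 (-2.11), E2f1 (-0.2382) and Rsad2 (-0.5385). The cause was not tested. Dim genes had the larger standard errors, which limits what could be called among them.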
